A study of Mus musculus with 7 samples.

Results

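The genes described here encode 10 cartilage matrix proteins other than collagens: the proteoglycans aggrecan (Acan), lubricin (Prg4), epiphycan (Epyc) and Snorc, the link protein Hapln1, the matrilins Matn1 and Matn3, the adaptors Comp and Chad, and chondromodulin (Cnmd). They were chosen by name, with earlier results of these data known. All 10 had a row among the 42687 gene rows of the count table. Transcripts were sequenced in bulk from cells that carried CD24 and CD29 on their surface, sorted from digested femurs of C57BL/6 mice. The LFD group (4 libraries, numbers 1 to 4) ate food with 10% fat and the HFD group (3 libraries, numbers 2 to 4) food with 60% fat. The mice were 3 months old at the start, both diets lasted 4 weeks, and the comparison asks which transcripts differed between the diets.

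The labels describe the sorted cells as stem cells of the skeleton. Itgb1, which encodes CD29, had 368 to 497 CPM (the count normalised to a library total scaled by TMM, the trimmed mean of M values) over the 7 libraries, and Cd24a had 774 to 4852 CPM. Cd24a was lowest in HFD 2 and highest in LFD 3, as was the share of erythroid genes (2.60% and 14.2% of counts). The part of erythroid cells in the Cd24a values was not tested. Chondrocyte genes were abundant in every library, with Col2a1 at 10209 to 39181 CPM and the chondrocyte regulator Sox9 at 331 to 723 CPM, so the defining transcripts of cartilage were present throughout. Library totals ranged from 17391613 to 24681838 counts. Xist, transcribed from the inactive X chromosome, was present in all LFD libraries (257 to 526 counts) and at 0 in all HFD libraries. The sum of 4 Y-linked genes was 1 to 5 counts in LFD and 2494 to 3405 in HFD. Diet and this difference cannot be told apart in any comparison between the groups. In these bulk samples fewer chondrocytes and less RNA per chondrocyte also cannot be told apart.

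Cartilage owes its stiffness to aggrecan, whose chondroitin sulfate chains hold water, and which is tied to hyaluronan by link protein. Matrilins, Comp and chondroadherin connect the proteoglycans to collagen fibrils or to cells. Chondromodulin keeps blood vessels out of cartilage, and lubricin coats the articular surface and is made by surface chondrocytes and by the synovial lining.

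Promoter windows of RefSeq (build GRCm38.p6, 250 bases before to 50 after the start) were matched for 7 of the 10 genes. Those not matched were Prg4, Snorc and Comp. Printed here are the windows of the pair that went together most closely over the libraries (Acan and Hapln1), of the gene with the highest level per length (Chad) and of the gene with the lowest (Matn1), each 5′ to 3′ on the strand of its gene. Capitals mark the motifs searched. Their places are chr7:79052976-79053275, chr13:89540386-89540685, chr11:94564797-94565096 and chr4:130944135-130944434, all on the plus strand. The RefSeq start can differ from the gene boundary of the annotation used for the counts, as it does for Acan and Hapln1.
Acan: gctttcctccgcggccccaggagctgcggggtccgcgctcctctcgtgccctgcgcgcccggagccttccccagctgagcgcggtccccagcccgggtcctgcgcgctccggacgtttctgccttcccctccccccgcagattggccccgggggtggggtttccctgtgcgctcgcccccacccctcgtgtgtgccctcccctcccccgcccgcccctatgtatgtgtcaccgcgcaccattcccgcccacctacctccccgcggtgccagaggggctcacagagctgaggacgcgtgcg
Hapln1: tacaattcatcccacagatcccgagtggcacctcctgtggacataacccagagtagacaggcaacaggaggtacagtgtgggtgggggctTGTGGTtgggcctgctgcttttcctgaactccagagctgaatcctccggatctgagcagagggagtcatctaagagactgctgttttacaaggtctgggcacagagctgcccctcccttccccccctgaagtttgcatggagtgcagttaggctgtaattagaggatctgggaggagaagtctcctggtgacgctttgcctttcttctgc
Chad: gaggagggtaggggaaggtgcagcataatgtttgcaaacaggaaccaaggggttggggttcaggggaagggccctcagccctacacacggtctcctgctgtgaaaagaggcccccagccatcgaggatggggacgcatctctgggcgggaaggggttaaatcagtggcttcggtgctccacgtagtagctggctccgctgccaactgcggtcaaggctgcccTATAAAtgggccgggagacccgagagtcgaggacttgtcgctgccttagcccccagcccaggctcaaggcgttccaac
Matn1: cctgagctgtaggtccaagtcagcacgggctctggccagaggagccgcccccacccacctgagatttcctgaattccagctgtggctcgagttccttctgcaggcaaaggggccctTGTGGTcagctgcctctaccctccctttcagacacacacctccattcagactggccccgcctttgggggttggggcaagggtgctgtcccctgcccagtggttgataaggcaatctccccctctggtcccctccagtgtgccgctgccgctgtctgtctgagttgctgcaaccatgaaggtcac

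The motifs were searched on both strands as ACAAAG and ACAATG (forms of the SOX motif), TATAAA (the TATA box) and TGTGGT (the RUNX motif). The Chad window held TATAAA starting 28 bases before the start, a motif found in 13.6% of all 32851 windows, and it was the sole window of these genes to hold it. The Hapln1, Matn1 and first Epyc windows each held TGTGGT once, as did 16.8% of all windows. A SOX form was present in 2 of the 8 windows of these genes, both of Epyc (28.6% of all windows held ACAAAG or ACAATG). The second Epyc window held ACAATG 2 times and ACAAAG once. The Acan window held no match and had a GC content of 74.0%, with 31 CpG dinucleotides, where the median window had 52.7% and 7. GC content was 54.3% in Hapln1 (3 CpG), 61.0% in Chad (13) and 61.3% in Matn1 (6). No matches overlapped. These are letter matches in short windows only.

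Together the 10 genes took between 1.63% of all counts (LFD 3) and 4.64% (HFD 2). Their share was 4.00% in LFD 1, 1.90% in LFD 2, 3.13% in LFD 4, 2.51% in HFD 3 and 2.84% in HFD 4, so that the diets overlapped. Exact 95% binomial intervals on these shares, which cover counting error only, reached from 1.62% to 1.63% in LFD 3 and from 4.63% to 4.65% in HFD 2. Chad, Prg4 and Comp held most of these counts. Chad took 31.2% to 43.0% of the summed counts of the 10 genes, Comp 19.7% to 25.4% and Prg4 17.3% to 35.8%. None of the other 7 exceeded 5.93%, the share of Matn3 in LFD 2.

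Per kilobase of merged exons, the order of levels was led by Chad, chondroadherin, a leucine-rich protein that binds collagen and integrins. Chad averaged 6125 CPM per kilobase over the 7 libraries and stood 6th among 42250 genes ranked by that measure. Comp followed with 2238 CPM per kilobase and Prg4 with 1613. Chad lay above Comp in 7 of 7 libraries with ranges that did not overlap (3851 to 8322 against 1474 to 3398), whereas the ranges of Comp and Prg4 (740 to 3028) overlapped and Comp was higher in 6 of 7. Cnmd averaged 641, Matn3 355, Snorc 310, Hapln1 185 and Acan 171 CPM per kilobase.

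Matn3 was above Snorc in 6 of 7 libraries and Hapln1 above Acan in 5 of 7, and the ranges of both pairs overlapped. Per length the level of aggrecan thus lay close to that of its link protein, within the spread between libraries. Epyc averaged 46.2 and Matn1 6.74 CPM per kilobase, and Matn1 was the lowest of the 10 genes in every library. With the length of the longest transcript in place of merged exons, Snorc reached 401 CPM per kilobase and would stand above Matn3. All 10 are protein-coding genes, and their longest annotated transcripts have from 3 exons (Snorc) to 19 exons (Comp).

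**Figure D1:**
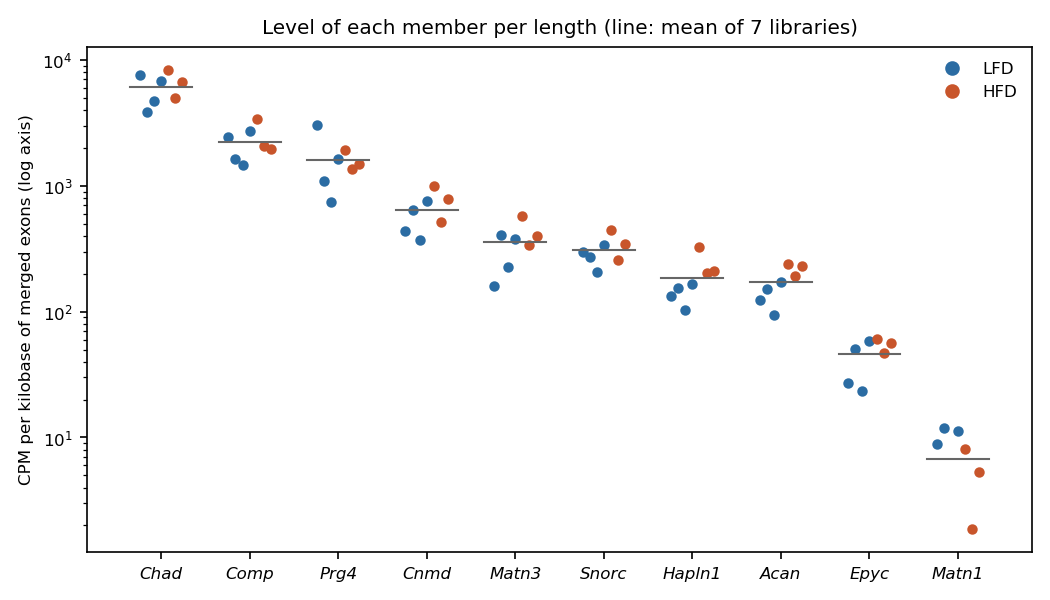
CPM per kilobase of merged exons (log axis) for each gene, with 1 point per library (LFD blue, HFD orange) and a line at the mean of 7 libraries. Chad is highest with a mean of 6125 and Matn1 lowest with 6.74, and the library LFD 3, with 0 counts of Matn1, has no point for that gene.

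Aggrecan and its link protein had the largest differences between the diets among these genes, and the groups of both did not overlap. Acan (ENSMUSG00000030607, mm10 chromosome 7, 79053483 to 79115099, plus strand) measured 929.5, 1119.9, 698 and 1294 CPM in LFD 1 to 4 and 1773, 1423 and 1721 CPM in HFD 2 to 4. All 3 HFD libraries lay above all 4 LFD libraries, and LFD 4 came closest to them. The means were 1010.3 ± 256 (SD, n = 4) and 1639 ± 189 CPM (SD, n = 3). This gave a log2 fold change of HFD over LFD of 0.70 ± 0.29 (SE), with an adjusted p of 0.643 in edgeR's quasi-likelihood test over 14304 genes.

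Hapln1 (ENSMUSG00000021613, chromosome 13, 89539796 to 89611652, plus strand) stabilises the bond between aggrecan and hyaluronan. It measured 791, 902, 604 and 984 CPM in LFD 1 to 4 and 1911, 1202 and 1244 CPM in HFD 2 to 4. HFD 2 stood well above the other HFD libraries, which lay closer to the LFD range. The means were 820.1 ± 164 and 1452 ± 398 CPM, and the log2 fold change was 0.82 ± 0.29 (adjusted p = 0.556 by edgeR). Without HFD 2 that value was 0.57.

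Acan and Hapln1 were the 2 members with an unadjusted p under 0.05 (0.0412 and 0.0226 by edgeR), a level reached by 7.53% of all genes tested. They were also the 2 members whose groups did not overlap, which held for 11.9% of all genes, and for 8.40% with HFD higher. After Benjamini-Hochberg adjustment over all genes, 0 of the 10 members passed 0.05 by edgeR, where 0.035% of all genes passed. By DESeq2 0 passed as well, where 2.03% of all genes passed, and the lowest adjusted p was that of Hapln1 (0.0962), followed by Acan (0.170). The log2 fold changes of both stayed positive under all 17 other settings tried, between 0.14 and 0.84 for Acan and between 0.21 and 0.96 for Hapln1. The lowest value of each came from scaling to the cartilage collagens.

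**Figure D2:**
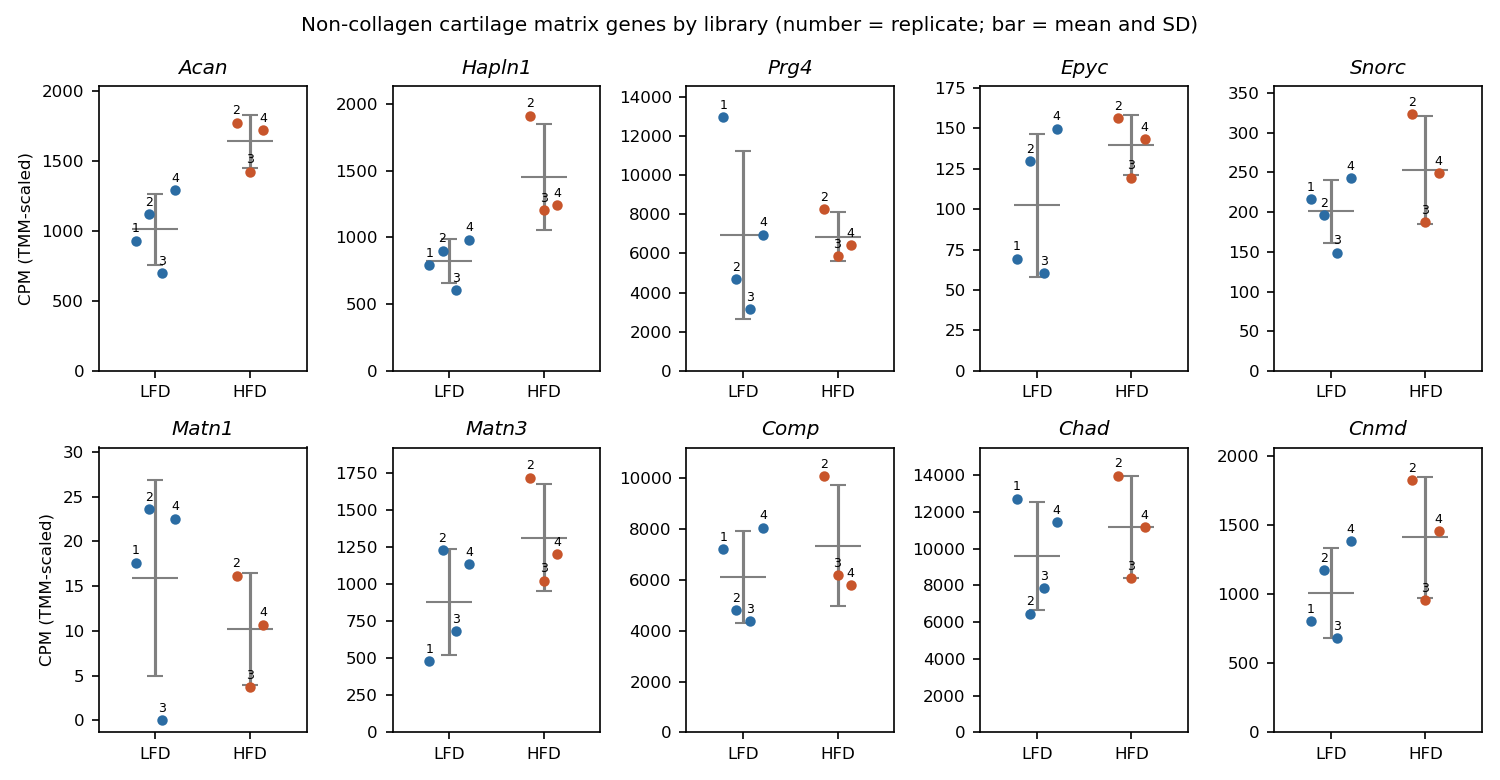
CPM of each gene in every library, with the replicate number above each point (LFD blue, HFD orange) and the mean and SD of each group. The groups are apart for Acan and Hapln1 and overlap for the other 8 genes, and LFD 1 is the highest library for Prg4 and the lowest for Matn3.

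Of the remaining proteoglycans, Prg4 had close to equal means in the diets and 1 library far above the rest. Prg4 (ENSMUSG00000006014, chromosome 1, 150449412 to 150466165, minus strand) measured 12960 CPM in LFD 1, 4686 in LFD 2, 3169 in LFD 3 and 6967 in LFD 4, against 8260, 5866 and 6425 in HFD 2 to 4. The LFD libraries spanned a 4.09-fold range that held all HFD libraries. Prg4 had a log2 fold change of -0.02 ± 0.50, with a 95% interval from -1.18 to 1.14, so that a difference of 2-fold in either direction was not resolved. Without LFD 1 the value was 0.48 (adjusted p = 0.583 by edgeR).

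Epyc (ENSMUSG00000019936, chromosome 10, 97644068 to 97682454, plus strand), a leucine-rich proteoglycan of growth plate cartilage, measured 69.4, 129.6, 60.3 and 149.7 CPM in LFD 1 to 4 and 156, 119 and 143 CPM in HFD 2 to 4. LFD 1 and LFD 3 were low, while LFD 2 and LFD 4 lay within the range of HFD. Epyc had a log2 fold change of 0.45 ± 0.34, with 0.27 without LFD 3 and 0.69 without LFD 4. Snorc (ENSMUSG00000026258, chromosome 1, 87470271 to 87475482, plus strand), a small transmembrane proteoglycan of chondrocytes, spanned 2.17-fold between the highest and the lowest library, close to Chad (2.16-fold). Snorc measured 216, 196, 149 and 243 CPM in LFD 1 to 4 and 324, 187 and 249 CPM in HFD 2 to 4. HFD 3 lay inside the LFD range, and the log2 fold change was 0.33 ± 0.26. It was 0.11 without HFD 2 and 0.53 without HFD 3.

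The matrilins differed from each other in level and in pattern. Matn3 (ENSMUSG00000020583, chromosome 12, 8947929 to 8972028, plus strand) measured 482, 1229, 686 and 1137 CPM in LFD 1 to 4 and 1719.9, 1024 and 1202 CPM in HFD 2 to 4. LFD 1, the library with the most Prg4, had the least Matn3. The log2 fold change of Matn3 was 0.57 ± 0.39, and 0.33 without HFD 2.

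Matn1 (ENSMUSG00000040533, chromosome 4, 130944385 to 130955475, plus strand) had 452, 377, 0 and 456 counts in LFD 1 to 4 and 463, 77 and 224 counts in HFD 2 to 4. In CPM these were 17.6, 23.6, 0 and 22.5 in LFD and 16.2, 3.72 and 10.7 in HFD. The count of 0 in LFD 3 allows a level of up to 0.187 CPM (3 counts, counting error only). The same library had 969 or more counts of each of the other 9 genes, for example 11219 of Acan and 11015 of Matn3. Those genes are more abundant than Matn1. Among scarce genes, Mkx (112 to 321 counts in the other libraries) and Kera (19 to 457) also had 0 counts in LFD 3. Scx (199) and Nkx3-2 (158) were present there. The groups of Matn1 overlapped, because LFD 3 lay below the 3 HFD libraries and the 3 LFD libraries that had Matn1 lay above them. LFD 1 (17.6 CPM) was close to HFD 2 (16.2 CPM). For Matn1 the log2 fold change was -0.64 ± 1.25 with a 95% interval from -3.53 to 2.24, and -1.04 without LFD 3 (adjusted p = 0.820 by edgeR). It ranged from -1.15 without HFD 2 to -0.23 without HFD 3. Matn3 outnumbered Matn1 by 27.3 to 52.0 counts to 1 in those 3 LFD libraries and by 106 to 275 counts to 1 in HFD.

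Comp, the cartilage oligomeric matrix protein of the thrombospondin family, which tendon also makes, overlapped between the diets. Comp (ENSMUSG00000031849, chromosome 8, 70373558 to 70382066, plus strand) measured 7197, 4814, 4374 and 8050.3 CPM in LFD 1 to 4 and 10080.0, 6172 and 5785 CPM in HFD 2 to 4, and HFD 3 and HFD 4 lay within the LFD range. Its log2 fold change was 0.27 ± 0.38, and -0.04 without HFD 2. Chad (ENSMUSG00000039084, chromosome 11, 94565047 to 94569127, plus strand) measured 12718, 6470.2, 7857 and 11439 CPM in LFD and 13981, 8385 and 11184 CPM in HFD. Its log2 fold change was 0.22 ± 0.38, with a 95% interval from -0.66 to 1.10. Leaving out 1 library gave 0.02 without HFD 2, 0.07 without LFD 2 and 0.40 without HFD 3. The counts of Chad per count of Comp varied little, from 1.34 to 1.93 over all 7 libraries.

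Cnmd (ENSMUSG00000022025, chromosome 14, 79637690 to 79662170, minus strand), the chondromodulin gene, measured 804, 1173, 681 and 1383 CPM in LFD 1 to 4 and 1824, 954 and 1454 CPM in HFD 2 to 4. HFD 3 lay below 2 of the LFD libraries. Cnmd had a log2 fold change of 0.48 ± 0.35, and 0.25 without HFD 2. Its relative Tnmd (tenomodulin, a tendon protein of the same family) was far less abundant, with 4.26 to 8.50 CPM in LFD and 22.7 to 37.9 CPM in HFD. The log2 fold change of Tnmd was 2.27 ± 0.33 (adjusted p = 0.128 by edgeR), and the difference between the pair was not tested. The 8 members other than Acan and Hapln1 had adjusted p between 0.717 and 0.995 by edgeR.

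**Figure D3:**
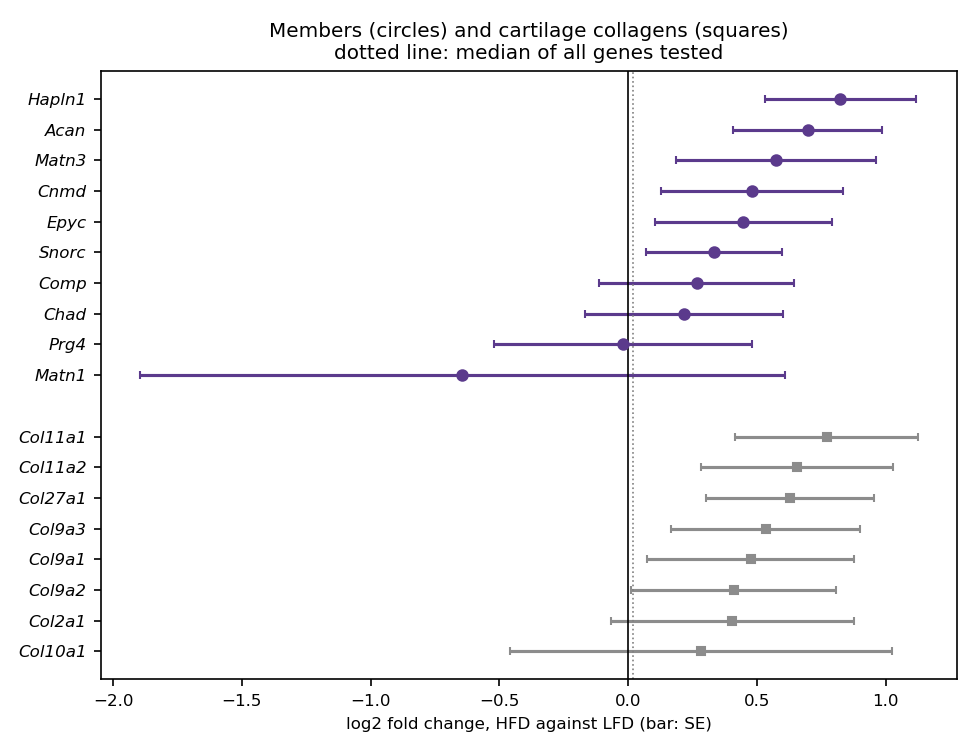
Log2 fold change of HFD against LFD with its SE for the 10 genes (circles) and 8 cartilage collagen genes (squares). The values run from -0.64 for Matn1 to 0.82 for Hapln1, and the dotted line marks the median of all genes tested, 0.02.

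As a list, 8 of the 10 members had a log2 fold change above 0, where 51.5% of all genes tested did. All 10 had passed the filter on low counts. The list was chosen with earlier results of these data known, so this count is a description only. The median of the members was 0.39, against 0.02 over all genes (with the middle 50% of all genes between -0.37 and 0.45). Without HFD 2 the median of the members was 0.18, and without LFD 3 it was 0.25. The number above 0 was 5 with limma-voom and sample quality weights, where the median was -0.01. Those weights were highest for HFD 3 (3.955) and LFD 4 (2.221), against 0.42 to 1.008 in the other libraries. With the erythroid share of counts as a covariate the number above 0 was 6 (median 0.10). Acan and Hapln1 then had log2 fold changes of 0.59 and 0.42.

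The other cartilage gene lists were also chosen with earlier results known, and their counts are descriptions only. Their medians were above 0, where 51.5% of all genes tested were above 0. By edgeR 0 of their genes passed the adjusted threshold, where 0.035% of all genes passed. All 8 cartilage collagens were above 0 (median 0.51, 0 at an unadjusted p under 0.05), with Col11a1 at 0.77 ± 0.35, Col11a2 at 0.66 ± 0.37 and Col27a1 at 0.63 ± 0.33. All 12 of the other non-collagen cartilage genes were above 0 (median 0.42, 0 at an unadjusted p under 0.05), among them the small proteoglycan Fmod at 0.68, Clec3a at 0.65 and the Wnt antagonist Frzb at 1.07. Of 19 genes that build and sulfate the chondroitin chains of aggrecan, 18 were above 0 (median 0.32). Of all genes tested 7.53% had an unadjusted p under 0.05, as did 3 of these 19. These were Ugdh, which makes the sugar donor glucuronate (113 ± 19.8 and 178 ± 27.6 CPM, log2 fold change 0.66 ± 0.22), Papss2, which makes the sulfate donor (309 ± 95.8 and 551 ± 147 CPM, 0.84 ± 0.32), and the sulfotransferase Chst11 (23.1 ± 11.8 and 51.2 ± 12.5 CPM, 1.15 ± 0.49). Their adjusted p by edgeR were 0.491, 0.608 and 0.656.

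Of 9 cartilage transcription factor genes 8 were above 0 (median 0.37), where 51.5% of all genes tested were. Sox5 had 0.48 ± 0.24 and Foxa2, a factor of hypertrophic cartilage with 0.912 ± 1.25 CPM in LFD, had 3.08 ± 1.41. Sox6, a partner of Sox9 on cartilage enhancers, was the exception at -0.98 ± 0.39, with 148 ± 50.5 and 74.9 ± 32.2 CPM (unadjusted p = 0.0359, adjusted p = 0.617 by edgeR). Sox6 was highest in LFD 3 (209.9 CPM) and lowest in HFD 2 (42.0 CPM). Those libraries also had the highest and lowest share of erythroid genes (14.2% and 2.60% of counts). The part of erythroid cells in the Sox6 values was not tested. Of 9 matrix-cleaving enzyme and inhibitor genes 7 were above 0 (median 0.34, 0 at an unadjusted p under 0.05), with the inhibitor Timp3 at 0.63, the collagenase Mmp13 at 0.71 and the low-count gene Adamts9 at 1.53 ± 1.12. Of 9 hypertrophic chondrocyte genes 8 were above 0 (median 0.37), and Spp1 (0.91 ± 0.36), Ibsp (0.79 ± 0.35) and Alpl (0.51 ± 0.24), which osteoblasts also express, had the lowest p. Spp1 alone of this list had an unadjusted p under 0.05, as did 7.53% of all genes tested.

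The closest relatives of the members by family were mostly scarce. Of 16 relatives 11 passed the filter, 8 of them above 0 (median 0.29), where 51.5% of all genes tested were. Ncan and Hapln2 had 0 counts in every library. Vcan, the relative of aggrecan in soft tissue, had 0 to 29.4 CPM, and the matrilins Matn2 and Matn4 had 38.2 to 117 and 6.74 to 38.9 CPM. Among thrombospondins, the family of Comp, Thbs1 was the most abundant (2057 ± 557 and 3108 ± 828 CPM, log2 fold change 0.60 ± 0.34), and Thbs4, a tendon gene, had 501 ± 145 and 820 ± 186 CPM (0.71 ± 0.30, adjusted p = 0.651 by edgeR).

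Over the 7 libraries, the genes differed in which other members they followed. Acan was most like Hapln1 (Pearson r of log2 CPM 0.94) and Epyc most like Cnmd (0.93), and Matn3 was most like Epyc (0.90). Comp and Chad were alike (0.85), and Prg4 was most like Chad (0.79) and least like Matn3 (-0.15). Matn3 and Chad had an r of 0.06. Snorc went with both sides, with 0.89 to Cnmd and 0.86 to Comp. Taken within the diets, as deviations from the mean of each diet, r was 0.82 for Acan and Hapln1, 0.84 for Comp and Chad and -0.28 for Prg4 and Matn3. These are descriptions over 7 libraries that share scaling and cell makeup, with no test.

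**Figure D4:**
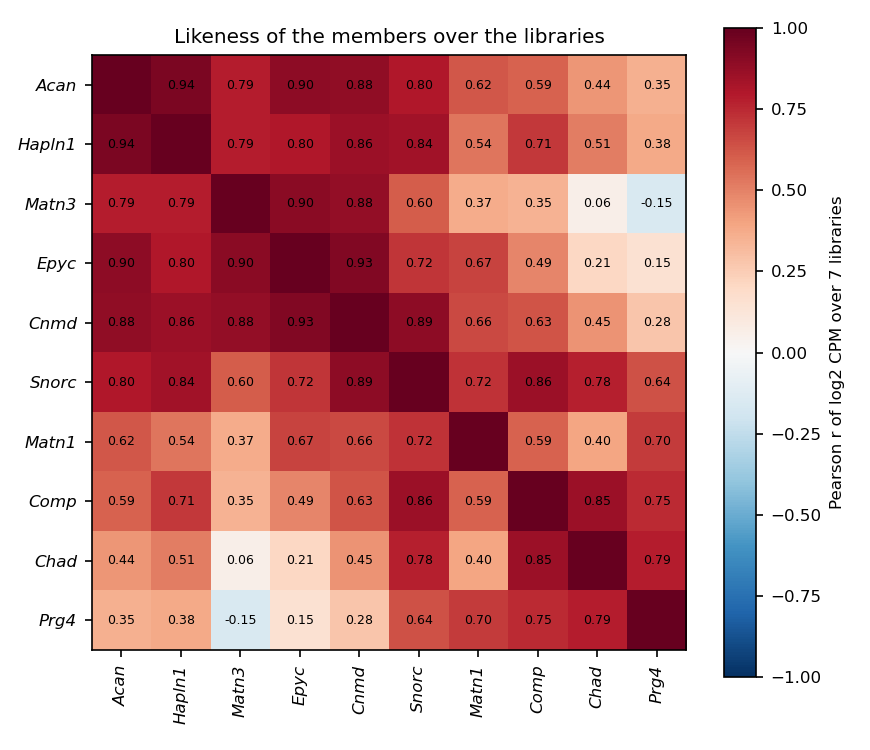
Pearson r of log2 CPM over the 7 libraries for each pair of genes, as colour and number. Acan, Hapln1, Matn3, Epyc and Cnmd have values of at least 0.79 with each other, and Prg4 has its lowest value, -0.15, with Matn3.

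One library, LFD 1, stood apart in its ratio of these genes to the cartilage collagens. The 8 cartilage collagens made up 1.62% of its counts, against 2.48% to 5.92% in the other libraries, and Col2a1 measured 10209 CPM there and 21649 to 39181 CPM elsewhere. Col10a1, the collagen of hypertrophic cartilage, went the other way, with 872 CPM in LFD 1 and 90.02 to 546 CPM elsewhere. Per 100 counts of those collagens, LFD 1 had 88.7 counts of Prg4, against 11.4 to 17.8 in LFD 2 to 4 and 16.2 to 20.003 in HFD. For Chad it had 87.1, against 18.1 to 29.2 and 27.4 to 28.6, and for Comp 49.3, against 13.4 to 20.6 and 14.6 to 21.04. Matn3, at 3.30, lay inside the range of the other libraries (2.46 to 3.49). Snorc had 1.48 in LFD 1, against 0.535 to 0.620 in LFD 2 to 4 and 0.629 to 0.638 in HFD. Acan (6.36), Hapln1 (5.42), Cnmd (5.50) and Epyc (0.475) were highest in LFD 1 on this scale too, by smaller margins. Of 7 markers of synovial lining and articular surface, LFD 1 was the highest library for 4, Cilp (15941 CPM), Clu (5338), Cilp2 (1638) and Tspan15 (54.8), but not for Htra1 (343), Cd55 (24.7) or Clic5 (8.66). Together they took 2.58% of counts in LFD 1 and 0.632% to 2.004% in the other libraries. The part of such cells in the values of LFD 1 was not tested. The low collagen level was not limited to cartilage collagens. Col1a1 and Col1a2, collagens of bone, were also lowest in LFD 1, at 4130 and 4531 CPM. Elsewhere they measured 8122.5 to 27691 and 8295 to 28215 CPM.

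**Figure D5:**
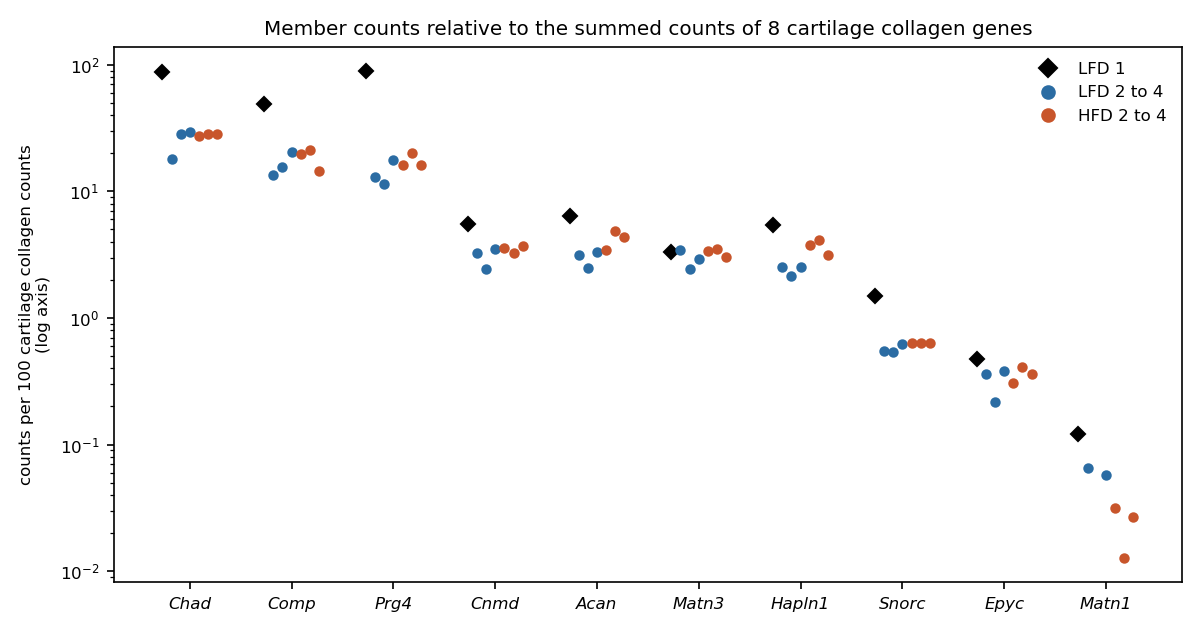
Counts of each gene per 100 summed counts of 8 cartilage collagen genes (log axis), with LFD 1 as black diamonds. LFD 1 is highest for every gene except Matn3, with Prg4 at 88.7 against at most 20.003 in the other libraries, and LFD 3 has no point for Matn1.

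Set against the cartilage collagens, the difference between the diets depended on LFD 1. With library totals replaced by the collagen counts, 3 of 10 members were above 0 in HFD (median -0.20, 0 called by edgeR), and Chad had a log2 fold change of -0.53. With LFD 1 left out as well, a setting added with the values already known, 9 of 10 were above 0, and Chad had 0.16, Prg4 0.31, Acan 0.50 and Hapln1 0.61. Those of Hapln1 and Acan were the highest of the 9 positive values, and Matn1 had -0.79. Hapln1 had 2.17 to 2.52 counts per 100 collagen counts in LFD 2 to 4 and 3.14 to 4.10 in HFD. Acan had 2.505 to 3.30 and 3.47 to 4.85, and Snorc 0.535 to 0.620 and 0.629 to 0.638. LFD 1 lay above all HFD libraries for each (Hapln1 5.42, Acan 6.36, Snorc 1.48), so with LFD 1 kept the groups overlapped. How many of all genes are apart on this scale was not computed.

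Markers of other cells were present in all libraries at unequal shares. Erythroid genes took 10.3% to 14.2% of counts in LFD and 2.60% to 10.5% in HFD, with 0 of 10 erythroid genes above 0 in HFD. Neutrophil genes took 0.101% to 0.507% and 0.930% to 1.52% (9 of 9 above 0), and 5 marrow stroma genes 0.0086% to 0.0297% and 0.127% to 0.267% (5 of 5 above 0). Osteoblast genes took 1.88% to 4.23% and 4.16% to 6.91% (9 of 10 above 0), and tendon genes 0.179% to 0.387% and 0.336% to 0.683% (5 of 6 above 0). The neutrophil and marrow stroma lists did not overlap between the diets, nor did the 4 scarcer lists below. Of all genes tested, taken singly by CPM, 11.9% did not overlap and 51.5% were above 0. The list shares are sums over unscaled library totals, so the 11.9% is not a like measure for them. Monocyte and macrophage genes took 0.0004% to 0.007% of counts in LFD and 0.0101% to 0.014% in HFD, and B lineage genes 0.0012% to 0.0051% and 0.0056% to 0.0113%. Endothelial genes were lower in HFD (0.0009% to 0.0023% and 0.0005% to 0.0007%), as were muscle genes (0.0109% to 0.022% and 0.0065% to 0.0078%), and the muscle gene Myh3 was at 0 throughout. Cdh5, Kdr, Emcn and Tie1 were at 0 in some libraries, and 3 of 6 endothelial genes passed the filter on low counts. HFD 2, the highest HFD library for all 10 members, had the smallest erythroid share of the 7 libraries. Beyond the erythroid covariate above, the part of these cells in the results was not tested.

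By likeness to the mean profile of the 10 members, the nearest of 8976 other genes with a mean of at least 8 CPM were Tmem117 (r 0.99), Rps6ka4, Eif4g3, Alkbh1 and Tbx15 (0.97). That profile was lowest in LFD 3 (mean centred log2 CPM -1.23), where Matn1 was at -6.15 and 0 members lay above their own mean. Without Matn1, left out once its values were known, the nearest genes were Ldlrad3 (0.99), Arsb (0.99), Zfyve27, Pcmtd1 and Prkcsh (0.97), with 65 genes at 0.9 or more. Those nearest to Prg4 were Rpl10 (0.99), Suclg1, Gsto1, Plbd2 and Fam136a (0.98), with 202 genes at 0.9 or more.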

How the data were processed

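The authors deposited whole-number counts per Ensembl gene that were not normalized, 1 column per library. Per the labels' protocols, RNA came from a column kit, cDNA from a low-input SMART-Seq kit and libraries from Nextera XT, read as paired ends. These kits amplify by PCR without molecular identifiers. Per the submitters' processing notes the tools included STAR 2.5.2b and HTSeq 0.11.2, with the mm10 build. The strand setting and the annotation release were not given in the sources used here, so reads of genes that overlap on the other strand cannot be told apart. Such partners were Tpr for Prg4 (28.6 to 44.7 CPM), Acsf2 for Chad (6.72 to 13.8 CPM), Gm8546 for Hapln1 (at most 0.507 CPM) and Gm10754 for Epyc (0 counts).

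Symbols came from the GENCODE M21 name table (42250 of 42687 identifiers matched), and coordinates and exon lengths from its annotation of mm10. For HFD against LFD, edgeR 4.0.16 (R 4.3.3) was run with its quasi-likelihood test on the 14304 genes that passed filterByExpr, with TMM, a robust fit and 1 term for diet. P-values were two-sided and adjusted by Benjamini-Hochberg over all genes tested, with a threshold of 0.05. SE is the log2 coefficient divided by the square root of F, and 95% intervals use the total degrees of freedom. Log2 CPM used a prior count of 2. DESeq2 1.42.0 and limma-voom 3.58.1 were alternatives. The procedure was tested on simulated data. The named genes were the 10 members, up to 3 genes per list with the lowest p, and the 5 genes most alike by Pearson r. Xist, Sox9, Col2a1, Col10a1, the synovial and articular markers, Vcan, Matn2 and Matn4 were named after their values were seen. The members and lists were chosen with earlier results of these data known. Each library was kept as 1 sample (chi-square per degree of freedom 57.3 to 670.5 between pairs). The labels do not say whether these are separate animals, so the spread behind each p-value is that between libraries and may be technical.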

Additional observations from a re-analysis of the deposited data

Results flagged for a closer look

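In LFD, which has 4 libraries, the highest and lowest library were compared with the rest by Dixon's ratio of gap to range, for CPM and for counts per 100 cartilage collagen counts. Of 20 such comparisons 4 passed the critical value for 95%, all on the collagen scale and all with LFD 1 as the high library. These were Prg4 with 88.7 counts per 100 collagen counts (ratio 0.917), Snorc with 1.48 (0.910), Hapln1 with 5.42 (0.892) and Chad with 87.1 (0.838). Chance passes about 1 test in 20, and the 4 share 1 denominator, so they are not independent.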

How the results depend on the processing

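Of the members 0 were called under every setting tried. The number of genes called by diet was 5 with edgeR, 291 with DESeq2, 26 with limma-voom, 10 at an adjusted p under 0.1, 9 with scaling to the cartilage collagens, 8 without a filter beyond 1 count, 1 with the erythroid share as covariate, and 0 with the stricter filter (10 counts in 4 libraries), and 1 to 6 when a library was left out (3 without LFD 1, 1 without LFD 2, HFD 2, HFD 3 or HFD 4). Members above 0 in HFD numbered 8, against 5 with limma-voom, 3 with collagen scaling (9 with LFD 1 also left out), 6 with the erythroid share, and 7 to 9 when a library was left out (7 without HFD 2, 9 without LFD 1, HFD 3 or HFD 4). With limma-voom the sign turned for Prg4 (0.0196), Snorc (-0.0371), Comp (-0.0318), Chad (-0.0659) and Cnmd (-0.0512). With the erythroid share it turned for Comp (-0.27) and Chad (-0.11). With collagen scaling it turned for Epyc (-0.0039), Snorc (-0.33), Comp (-0.42), Chad (-0.53) and Cnmd (-0.076), and for Prg4 with LFD 1 also left out (0.31). When a library was left out, Prg4 ranged from -0.25 to 0.48 (above 0 without LFD 1, HFD 3 or HFD 4) and Comp from -0.0363 (without HFD 2) to 0.43. The cause was not tested. Acan, Hapln1 and Matn3 kept a positive sign under all 17 settings.

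With replicate number as a block over libraries 2 to 4 of each diet, edgeR called 0 genes, 10 members were above 0, and the sign turned for Prg4 (0.54) and Matn1 (0.53). Deviations of libraries with the same number had correlations of -0.10, 0.03 and -0.06, so the numbers were not taken as pairs. Apart from Matn1, with 0 to 463 counts, each member had at least 969 counts in every library, and the spread between libraries exceeded counting error (common biological coefficient of variation 0.628).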
